A study of Mus musculus with 16 samples.

Results

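Peritoneal macrophages taken after interleukin-4 complex (IL-4c) treatment were compared with alveolar macrophages of untreated mice, to describe which genes of the alveolar macrophage the treated peritoneal cell shares and which keep the cell types apart. The comparison rested on 4 of the 16 arrays of the series: 2 arrays of IL-4c-stimulated Bhlhe40WT large peritoneal macrophages (IL-4c WT LPM) and 2 arrays of naive Bhlhe40WT alveolar macrophages (naive WT AM), chosen by their labels. A further 3 arrays of naive Bhlhe40WT large peritoneal macrophages (naive WT LPM) showed where the treated cells started. The IL-4c mice were injected on days 0 and 2 and killed on day 4, and the naive mice were untreated. Naive mice carry no mock injection in the labels, so IL-4c and the injections themselves cannot be told apart, and tissue and treatment both differ between IL-4c WT LPM and naive WT AM. All mice were male C57BL/6. The LPM came from peritoneal lavage and the AM from lung digest, and both were sorted. Bhlhe40WT denotes Bhlhe40+/+ mice. The Bhlhe40KO arrays (Bhlhe40-/-) comprise IL-4c-stimulated LPM (n = 2), naive AM (n = 2) and naive LPM (n = 3). They served to define gene sets and to repeat the comparison in a second genotype. The labels do not say whether replicates are separate mice or pools, and the p-values therefore rest on array-to-array spread that may be technical.

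Alveolar macrophages are the resident phagocytes of the airspace. They depend on GM-CSF and on the nuclear receptor PPARG, and they take up and break down surfactant lipid. Large peritoneal macrophages fill the serous cavity, where the transcription factor GATA6, driven by retinoic acid, maintains their identity. IL-4 binds the IL-4 receptor, activates STAT6 and induces an alternative activation programme (Arg1, Retnla, Chil3 and others) along with proliferation of resident macrophages. IL-4c is the cytokine complexed with an antibody, which prolongs its action. Alveolar macrophages are known to express Chil3 without added IL-4, so the treated peritoneal cell and the untreated alveolar cell have a known point of overlap.

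The values were log2 expression values of a one-colour Affymetrix array, with 30177 probe sets reduced to 19938 named genes, of which 11634 were bright enough to test. Correlation across probe sets was 0.992 between the IL-4c WT LPM arrays and 0.99 between the naive WT AM arrays. It ranged 0.926 to 0.933 between IL-4c WT LPM and naive WT AM, 0.963 to 0.969 between IL-4c WT LPM and naive WT LPM, and 0.942 to 0.944 between naive WT LPM and naive WT AM. The arrays therefore placed the treated cells nearer to untreated peritoneal cells than to alveolar cells. The highest value was 13.67 on both IL-4c WT LPM arrays, against 13.15 to 13.33 on the 10 naive arrays. In the Bhlhe40KO groups, Bhlhe40 itself read 8.01 and 7.9 in IL-4c KO LPM, 7.53 and 7.75 in naive KO AM and 6.79, 6.5 and 7.11 in naive KO LPM, below every WT array of the same cell type and treatment (8.77 and 8.99 in IL-4c WT LPM, against 8.66, 8.75 and 8.64 in naive WT LPM and 9.57 and 10.07 in naive WT AM). Where in the gene the probe set lies was not examined. Defining markers matched the labels in part. The LPM markers Gata6, Timd4, Icam2 and Prg4 were high on every peritoneal array and low on the alveolar ones, and Siglecf, Pparg, Itgax and Krt79 showed the reverse. Fabp4 and Marco, listed as alveolar markers, were not higher in AM than in all peritoneal arrays and are described below.

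Of the 11634 genes, 3433 (29.5%) were called higher and 2540 (21.8%) lower in IL-4c WT LPM than in naive WT AM, by limma with Benjamini-Hochberg adjusted p under 0.05. Genes were sorted into 4 classes. A gene was above AM (1375 genes, 11.8%) or below AM (1027 genes, 8.83%) when it was called and differed by at least 1 on the log2 scale, which is 2-fold. It was level with AM (7295 genes, 62.7%) when the 95% confidence interval of the difference lay wholly between -1 and 1, and otherwise it was not resolved. A gene was raised (704 genes, 6.05%) or lowered (560 genes, 4.81%) by treatment when IL-4c WT LPM differed from naive WT LPM by the same call and size. The comparison with AM and the comparison with naive LPM share the 2 IL-4c WT LPM arrays, so counts that combine them are descriptions. Over all 11634 genes the median difference was 0.07 on the log2 scale. The class not resolved also holds called genes that differed by less than 1.

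To ask about alveolar genes without letting the compared arrays choose them, an alveolar-enriched set of 368 genes was taken from the KO arrays, as those at least 4-fold higher in naive KO AM than in naive KO LPM (log2 difference of 2 or more, called). A peritoneal-enriched set of 326 genes was taken from the same arrays in the other direction. Mical2 and Myo6 lay just inside the alveolar bound at 2.01, and Clmn and Sytl3 lay just outside it. In naive WT LPM 366 of the 368 alveolar-enriched genes (99.5%) were below WT AM, against 7.13% of all genes; the set had been chosen on the same tissues in the other genotype. In IL-4c WT LPM, 335 of the 368 (91.0%) were below AM, 14 (3.80%) were level with it, 2 (0.543%) were above it and 17 (4.62%) were not resolved. Over all genes, 8.83% were below, 62.7% level and 11.8% above. In 145 of the 335, neither IL-4c WT LPM array exceeded its median. These passed the filter through other arrays, so the count below AM is a description only. Treatment raised 58 of the 368 genes, where 6.05% of all genes were raised. Of those 58, 15 reached the AM level or passed it. The mean log2 value over the 368 genes was 5.44 and 5.40 on the IL-4c WT LPM arrays, against 5.26, 5.26 and 5.28 in naive WT LPM and 8.28 and 8.5 in naive WT AM. The IL-4c arrays thus sat slightly above every naive LPM array and about 3 log2 units under both AM arrays. The scatter of treated peritoneal against alveolar levels shows a dense cloud under the diagonal and a thin line of genes along it.

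**Figure D1:**
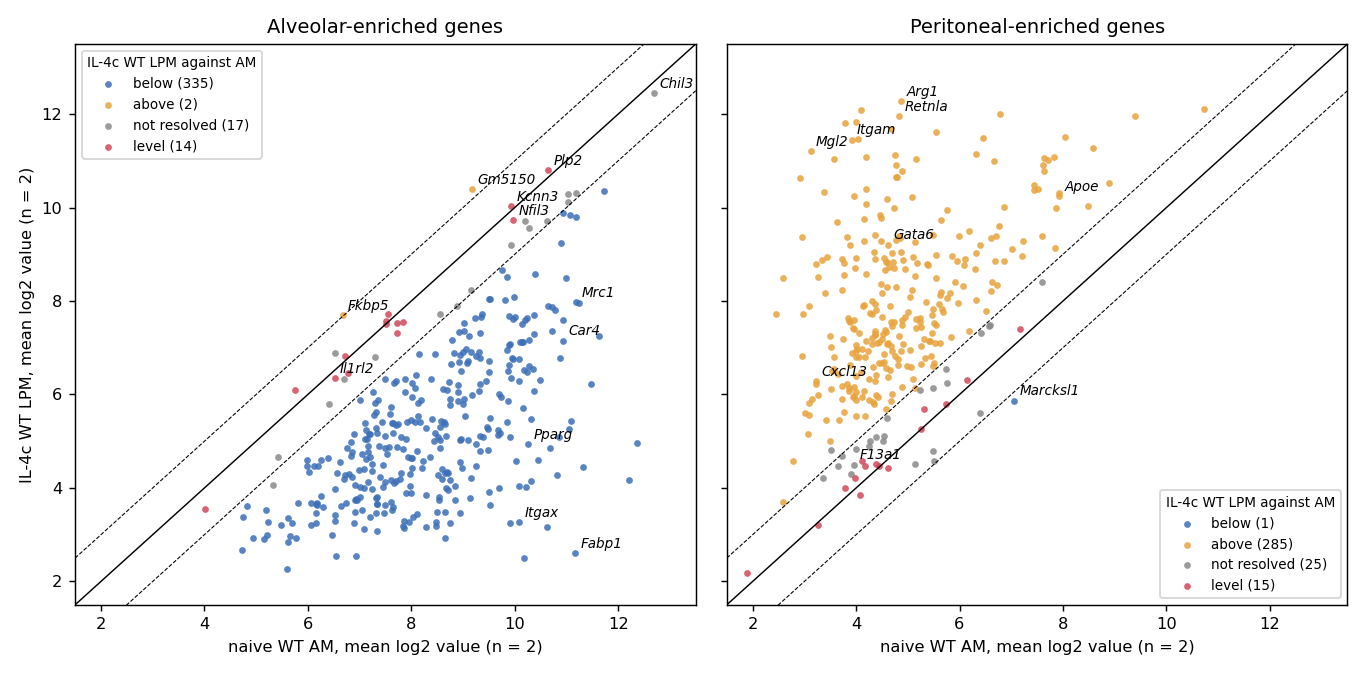
Each point is a gene, placed by its mean log2 value in naive WT AM (horizontal axis) and in IL-4c WT LPM (vertical axis), with n = 2 arrays each; the left panel holds the 368 alveolar-enriched and the right panel the 326 peritoneal-enriched genes. The solid line marks equal levels and the dashed lines a difference of 1; 335 alveolar-enriched genes lie below AM and 285 peritoneal-enriched genes above it.

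Among the alveolar-enriched genes that came close to the AM level, Chil3, which encodes the secreted chitinase-like protein Ym1, had log2 values of 12.49 and 12.39 in IL-4c WT LPM, against 6.66, 6.5 and 7.2 in naive WT LPM and 12.79 and 12.6 in naive WT AM. Both treated arrays lay just under the AM arrays and far above every naive LPM array. The difference from AM was -0.25, SE 0.45, adjusted p = 0.666, with an interval from -1.2 to 0.7, so Chil3 was not formally resolved as level. Treatment raised it by 5.66 (SE 0.41, adjusted p = 7.06e-08), a 50.5-fold change. Its values sat near the top of the arrays' range, where array signals can flatten, and whether that narrowed the difference was not tested. Il1rl2, the receptor for IL-36 cytokines, read 6.14 and 6.56 in IL-4c WT LPM, against 2.8, 2.96 and 3.24 in naive WT LPM and 6.48 and 6.55 in naive WT AM. The treated arrays fell on either side of the AM arrays, and the difference was -0.17 (SE 0.26, adjusted p = 0.614). Treatment raised it 10.2-fold. Without the second IL-4c WT LPM array its interval reached 1.04 and no longer fitted inside the bound.

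The promoters of Chil3 and Il1rl2 are shown because these genes stood low in naive LPM and close to AM after treatment. They come from RefSeq on GRCm38.p6 and run from 250 bases before to 50 after the start of the gene, written in the direction of transcription. Chil3 lies at chr3:106167515-106167814 on the minus strand and Il1rl2 at chr1:40324339-40324638 on the plus strand. Capitals mark any match to the palindromes TTCNNNNGAA (the spacing that STAT6 is known to prefer) and TTCNNNGAA (the spacing of other STAT proteins), or to the PU.1-type core GAGGAA, on either strand.
Chil3: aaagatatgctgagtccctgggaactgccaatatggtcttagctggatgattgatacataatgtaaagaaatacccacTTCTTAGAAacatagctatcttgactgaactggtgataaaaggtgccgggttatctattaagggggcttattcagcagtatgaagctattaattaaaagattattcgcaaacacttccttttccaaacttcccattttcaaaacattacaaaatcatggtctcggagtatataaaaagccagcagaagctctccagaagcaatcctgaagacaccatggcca
Il1rl2: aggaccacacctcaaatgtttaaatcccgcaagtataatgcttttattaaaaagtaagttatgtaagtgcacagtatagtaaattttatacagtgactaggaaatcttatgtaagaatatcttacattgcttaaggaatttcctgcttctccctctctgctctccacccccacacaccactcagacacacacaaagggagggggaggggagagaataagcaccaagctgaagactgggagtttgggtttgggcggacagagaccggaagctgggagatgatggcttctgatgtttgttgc
Chil3 held 1 match, TTCNNNGAA at position -172 from the start, and Il1rl2 held none of the 3 motifs in this window. Of the 27025 promoters in the table, 6.99% held TTCNNNNGAA, 8.47% held TTCNNNGAA and 28.3% held GAGGAA. The shares were 5.29%, 6.85% and 26.8% among the 9327 tested genes with a promoter in the table. Of the 15 genes raised to the AM level or above, 14 had a promoter there, and 0, 1 and 3 of them held the motifs in that order. A match is a description of letters and not a bound site.

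Plp2, a membrane proteolipid, was the level gene with the largest tissue difference in the KO arrays. It had log2 values of 10.84 and 10.76 in IL-4c WT LPM, against 7.03, 6.46 and 7.12 in naive WT LPM and 10.58 and 10.7 in naive WT AM, so both treated arrays exceeded both AM arrays by a small margin. The difference was 0.16 (SE 0.36), its interval came close to the bound, and it was not level when any 1 of the 4 arrays was left out (largest bound 1.10 to 1.22). Kcnn3, a calcium-activated potassium channel, was more tightly placed at 9.95 and 10.1 in IL-4c WT LPM, against 7.64, 7.6 and 7.57 in naive WT LPM and 9.9 and 9.96 in naive WT AM, with a difference of 0.1 (SE 0.17). Nfil3, a basic leucine zipper repressor, read 9.83 and 9.62 in IL-4c WT LPM, against 8.34, 8.31 and 8.34 in naive WT LPM and 10.07 and 9.87 in naive WT AM. Both treated arrays stood above all naive LPM arrays and under both AM arrays, with a difference of -0.24 (SE 0.14). Glipr2, a Golgi-associated protein, was the closest to AM of the 14 level genes. It had 7.35 and 7.68 in IL-4c WT LPM, against 7.56 and 7.46 in naive WT AM (difference 0.01, SE 0.22).

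Most of the remaining level genes followed the same course. Ahnak2, a large scaffold protein, had 7.6 and 7.46 in IL-4c WT LPM, against 5.79, 5.66 and 6.03 in naive WT LPM and 7.74 and 7.71 in naive WT AM. Mbnl3, a muscleblind-type splicing regulator, had 6.5 and 7.13 in IL-4c WT LPM, against 4.7, 4.62 and 4.51 in naive WT LPM and 6.66 and 6.76 in naive WT AM. Its treated arrays fell on either side of the AM arrays. Bub1b, a spindle checkpoint kinase, had 7.54 and 7.89 in IL-4c WT LPM, against 5.43, 5.32 and 5.21 in naive WT LPM and 7.47 and 7.62 in naive WT AM. It also belongs to the list of mitotic genes described below. Gm6116 had 6.2 and 6.0 in IL-4c WT LPM, against 3.19, 3.45 and 3.38 in naive WT LPM and 5.96 and 5.55 in naive WT AM. Leaving out the first IL-4c array took Mbnl3, and leaving out the first AM array took Gm6116, out of the level class (largest bounds 1.05 and 1.07). Mical2, Noct, Nup210 and Tes complete the raised and level genes and were named after their values were seen. Tnfsf18, the ligand of the GITR receptor, was the 1 level gene of 14 that treatment did not raise. It was dim on the WT arrays, at 3.51 and 3.56 in IL-4c WT LPM, against 3.5, 3.09 and 3.13 in naive WT LPM and 4.12 and 3.92 in naive WT AM, had 5.16 and 5.74 in naive KO AM, and was called slightly lower in IL-4c WT LPM than in WT AM (log2 difference -0.48, adjusted p = 0.0384). That call was lost under several alternatives (adjusted p = 0.0513 to 0.197), among them without the first AM array or without either IL-4c array.

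Treatment took 2 alveolar-enriched genes past the alveolar level. Gm5150 read 10.38 and 10.4 in IL-4c WT LPM, against 5.09, 6.07 and 5.46 in naive WT LPM and 9.23 and 9.11 in naive WT AM, a difference from AM of 1.22, SE 0.33, adjusted p = 0.00561. Fkbp5, an immunophilin known for its induction by glucocorticoids, read 7.51 and 7.88 in IL-4c WT LPM, against 5.16, 5.26 and 5.69 in naive WT LPM and 6.57 and 6.77 in naive WT AM, a difference of 1.02, SE 0.29, adjusted p = 0.00807. Both treated arrays of each gene exceeded both AM arrays. The Fkbp5 call was lost without the first AM array or without the second IL-4c array (adjusted p = 0.0595 and 0.0778).

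With Chil3, 13 raised genes came close to AM without being resolved. Csf2rb, the shared signalling chain of the GM-CSF, IL-3 and IL-5 receptors, had 9.13 and 9.27 in IL-4c WT LPM, against 8.05, 8.16 and 8.36 in naive WT LPM and 9.67 and 10.2 in naive WT AM. It was called lower than in AM (-0.74, SE 0.17, adjusted p = 0.00148). Galnt6, which starts O-linked glycans, had 7.07 and 6.55 in IL-4c WT LPM, against 3.26, 3.17 and 3.53 in naive WT LPM and 6.93 and 7.66 in naive WT AM, with overlapping treated and AM arrays. Naaa, a lysosomal hydrolase of fatty acid ethanolamides, had 9.38 and 10.05 in IL-4c WT LPM, against 7.76, 7.8 and 7.8 in naive WT LPM and 10.1 and 10.27 in naive WT AM. Slc7a5, the large neutral amino acid transporter, had 7.6 and 7.87 in IL-4c WT LPM, against 6.41, 5.8 and 6.09 in naive WT LPM and 8.43 and 8.67 in naive WT AM. Both treated arrays lay between the naive LPM and the AM arrays. The nuclear lamina gene Lmna (log2 difference -0.91), the annexin Anxa2 (-0.74) and Rgcc (-1.0) were likewise called lower than in AM by just under 2-fold or less, after rises over naive LPM of 1.9, 1.58 and 1.14 on the log2 scale.

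**Figure D2:**
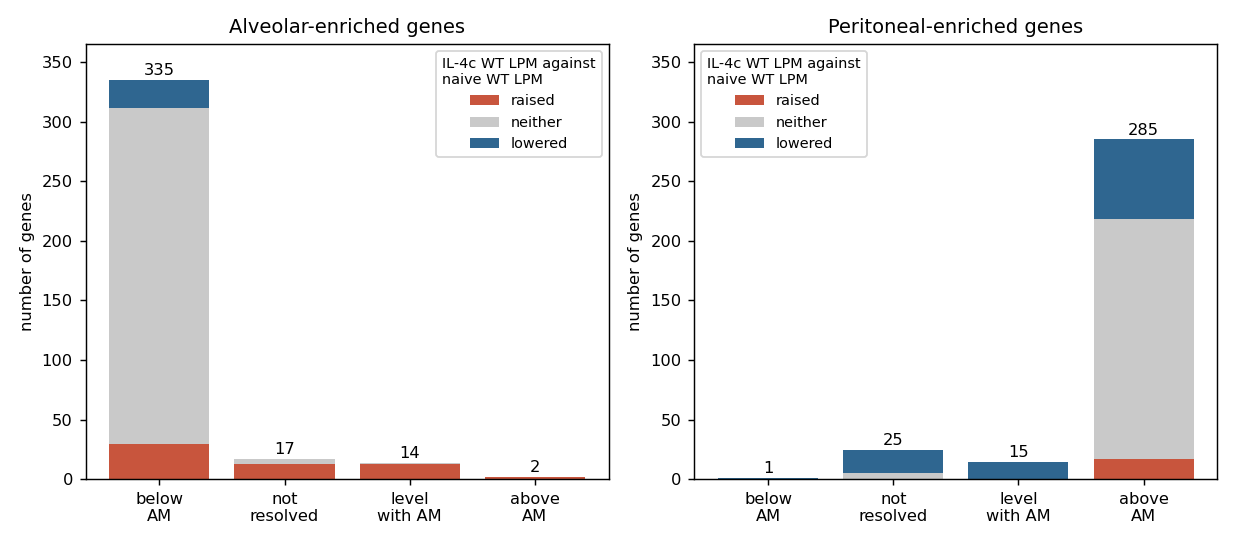
Bars count alveolar-enriched (left) and peritoneal-enriched genes (right) by their class in IL-4c WT LPM against naive WT AM, and colours show whether the gene was raised, lowered or neither in IL-4c WT LPM against naive WT LPM. Of the 335 alveolar-enriched genes below AM 281 were neither raised nor lowered, and 13 of the 14 level genes were raised.

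Another 30 alveolar-enriched genes were raised by treatment and still stayed below AM. Car4, a membrane-bound carbonic anhydrase and a usual marker of alveolar macrophages, had 7.89 and 6.42 in IL-4c WT LPM, against 4.21, 4.14 and 3.62 in naive WT LPM and 10.91 and 10.95 in naive WT AM. The treated arrays lay between the cell types and differed from each other by more than 1 log2 unit. Treatment raised Car4 8.95-fold, and it remained 13.7-fold below AM (adjusted p = 1.13e-06). Mrc1, the mannose receptor CD206, had 8.56 and 7.39 in IL-4c WT LPM, against 5.8, 7.13 and 6.74 in naive WT LPM and 11.16 and 11.2 in naive WT AM. It remained 9.21-fold below AM. Mrc1 is a classical marker of alternative activation. Flt1, a VEGF receptor, had 6.04 and 5.77 in IL-4c WT LPM, against 4.31, 3.6 and 4.44 in naive WT LPM and 8.68 and 9.36 in naive WT AM. Axl, a receptor for apoptotic cells bridged by GAS6, had 6.04 and 6.94 in IL-4c WT LPM, against 5.25, 5.23 and 5.36 in naive WT LPM and 10.13 and 10.35 in naive WT AM. Acp5, the tartrate-resistant acid phosphatase, had 6.78 and 6.57 in IL-4c WT LPM, against 5.3, 5.07 and 5.05 in naive WT LPM and 8.96 and 9.21 in naive WT AM. For these genes every treated array was above every naive LPM array and below every AM array. Tgm2, Mt2 and Scd1, named after their values were seen, also rose part of the way. Treatment raised transglutaminase Tgm2 by 2.91, metallothionein Mt2 by 3.57 and the fatty acid desaturase Scd1 by 1.31 on the log2 scale. They ended 2.12-, 2.62- and 2.42-fold below AM. Of these, the Tgm2 call against AM was lost without the second AM array or without either IL-4c array (adjusted p = 0.307, 0.0576 and 0.191).

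Most alveolar-enriched genes (286 of 368) were neither raised nor lowered by treatment. The same was true of most genes tested, of which 6.05% were raised and 4.81% lowered. Of the 335 genes below AM, 281 were neither raised nor lowered, and 145 did not exceed the array median on either IL-4c array. A list of 38 alveolar signature genes, 36 of them measured and tested, gave 30 lower, 3 higher and 3 not called in IL-4c WT LPM, with a median difference of -4.04 on the log2 scale against 0.07 for all genes. For 14 of the 36 the AM arrays alone passed the filter on low values, so these had to differ. Fabp1, a fatty acid binding protein, showed the largest difference of the comparison, with 2.57 and 2.64 in IL-4c WT LPM, against 2.73, 2.46 and 2.88 in naive WT LPM and 11.26 and 11.08 in naive WT AM. Both peritoneal groups sat at the floor of the array while AM was 378-fold above IL-4c WT LPM (log2 difference -8.56, SE 0.19, adjusted p = 6.42e-15). Array signals flatten near the floor, so folds of this kind may be understated. Pparg, the nuclear receptor that alveolar macrophages need, had 5.09 and 4.77 in IL-4c WT LPM, against 4.6, 4.69 and 4.85 in naive WT LPM and 10.3 and 10.22 in naive WT AM. Treatment changed it by 0.22 (adjusted p = 0.311), and AM stood 40.3-fold higher. Siglecf, a sialic acid binding lectin, had 5.27 and 4.77 in IL-4c WT LPM, against 5.06, 4.99 and 5.06 in naive WT LPM and 8.9 and 8.99 in naive WT AM. Itgax, the integrin CD11c, had 3.21 and 3.32 in IL-4c WT LPM, against 3.51, 3.13 and 3.17 in naive WT LPM and 9.94 and 10.22 in naive WT AM. The treated and naive peritoneal arrays overlapped for Fabp1, Pparg, Siglecf and Itgax, and all of them lay far under AM.

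The promoters of Fabp1 and Itgax are given as those of genes that stayed at the peritoneal level under treatment, with the same window, build, credit and capitals as above. Fabp1 lies at chr6:71199629-71199928 and Itgax at chr7:128129300-128129599, both on the plus strand.
Fabp1: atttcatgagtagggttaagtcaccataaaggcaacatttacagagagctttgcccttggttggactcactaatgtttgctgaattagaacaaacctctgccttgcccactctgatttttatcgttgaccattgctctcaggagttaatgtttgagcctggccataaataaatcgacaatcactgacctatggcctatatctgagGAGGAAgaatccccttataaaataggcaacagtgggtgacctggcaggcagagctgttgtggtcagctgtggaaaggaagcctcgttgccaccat
Itgax: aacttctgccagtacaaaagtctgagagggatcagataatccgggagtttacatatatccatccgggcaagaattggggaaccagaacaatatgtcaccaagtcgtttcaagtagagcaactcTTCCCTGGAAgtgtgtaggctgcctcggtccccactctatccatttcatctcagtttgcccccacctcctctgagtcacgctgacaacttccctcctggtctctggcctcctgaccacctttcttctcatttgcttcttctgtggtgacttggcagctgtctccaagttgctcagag
Fabp1 held GAGGAA at position -45, and Itgax held TTCNNNNGAA at position -127. Of the 265 alveolar-enriched genes below AM with a promoter in the table, 7.17% held TTCNNNNGAA, 7.17% held TTCNNNGAA and 34.3% held GAGGAA.

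Other signature genes also stayed below AM. Atp6v0d2, a subunit of the vacuolar proton pump, had 4.33 and 4.0 in IL-4c WT LPM, against 12.33 and 12.11 in naive WT AM. Plet1, a surface protein, had 5.21 and 4.7 in IL-4c WT LPM, against 12.39 and 12.34 in naive WT AM. Cidec, a lipid droplet protein, had 4.3 and 3.99 in IL-4c WT LPM, against 10.09 and 10.55 in naive WT AM. Each was bright in AM and dim in treated LPM. Ctsk, the cysteine protease cathepsin K, had 4.26 and 4.31 in IL-4c WT LPM, against 10.53 and 11.1 in naive WT AM. The keratins Krt19 and Krt79 were 74- and 34.1-fold lower in IL-4c WT LPM, and the adhesion molecules Cd2 and Epcam 55- and 25-fold lower. Bhlhe41, the closest relative of Bhlhe40, had 3.44 and 3.51 in IL-4c WT LPM, against 3.84, 4.73 and 3.94 in naive WT LPM and 8.25 and 8.73 in naive WT AM. Less far apart were Cd9, a tetraspanin, with 10.28 and 10.45 in IL-4c WT LPM, against 11.49 and 11.95 in naive WT AM, and the cholesterol exporter Abcg1. Abcg1 had 7.88 and 7.38 in IL-4c WT LPM, against 7.1, 6.58 and 6.64 in naive WT LPM and 10.06 and 10.4 in naive WT AM. The largest falls outside the list were Sh2d1b1, an SH2 adaptor (2.23 and 2.76 in IL-4c WT LPM, against 10.58 and 9.79 in naive WT AM), and Clec4n, the lectin dectin-2 (3.27 and 3.07 in IL-4c WT LPM, against 10.72 and 10.55 in naive WT AM). In the map of signature genes the treated and naive peritoneal blocks look alike for most rows, and the alveolar block stands apart.

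**Figure D3:**
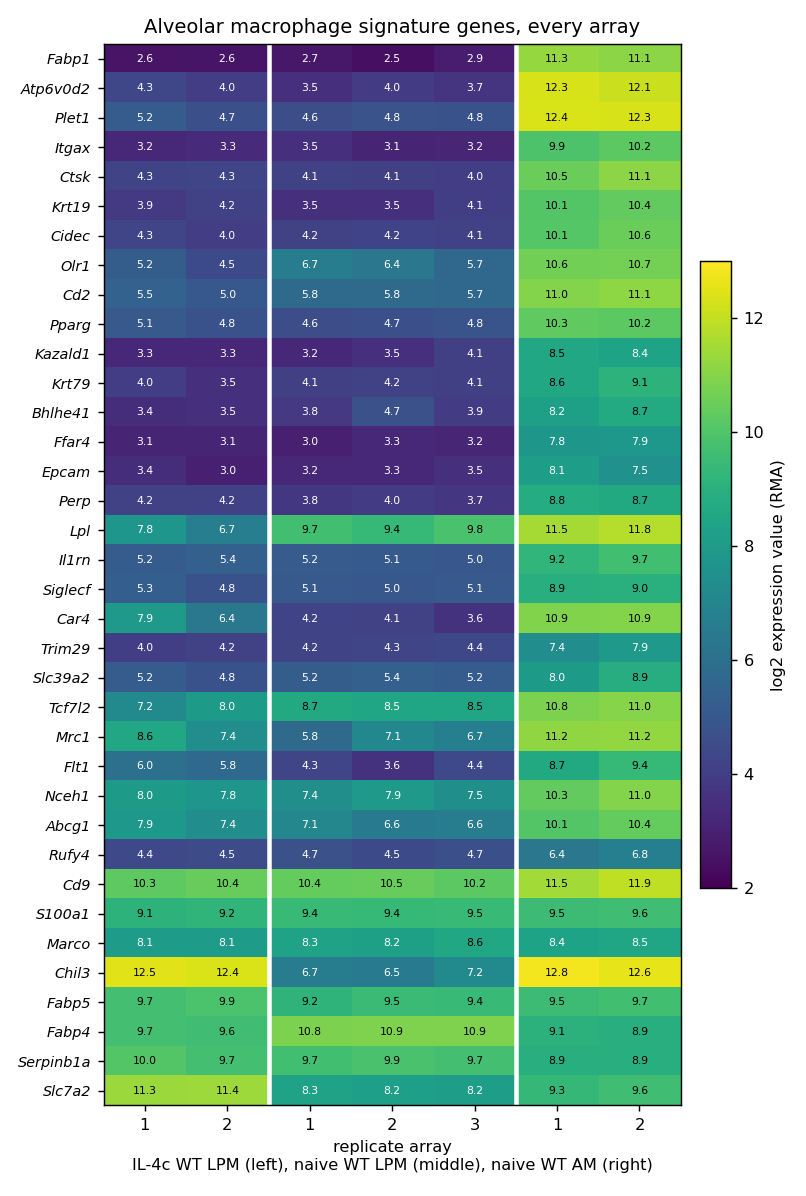
Log2 expression value of the 36 measured alveolar signature genes on each array of IL-4c WT LPM (n = 2, left), naive WT LPM (n = 3, middle) and naive WT AM (n = 2, right), ordered by the difference between IL-4c WT LPM and AM. The left block differs from the middle one by 5.66 for Chil3, 3.15 for Slc7a2 and -0.08 for Fabp1.

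Some genes of the signature list lay within 1 log2 unit of AM, or above it, in treated cells. Fabp4 had 9.72 and 9.61 in IL-4c WT LPM, against 10.82, 10.88 and 10.88 in naive WT LPM and 9.05 and 8.94 in naive WT AM. Both peritoneal groups exceeded AM. The change under treatment was -1.2 (adjusted p = 0.000292), and the treated cells remained 1.59-fold above AM. That last call was lost when any 1 of the 4 compared arrays was left out (adjusted p = 0.0602 to 0.106). Fabp5 had 9.71 and 9.89 in IL-4c WT LPM, against 9.16, 9.49 and 9.44 in naive WT LPM and 9.54 and 9.68 in naive WT AM and was level with AM. The scavenger receptor Marco had 8.1 and 8.09 in IL-4c WT LPM, against 8.35, 8.24 and 8.59 in naive WT LPM and 8.4 and 8.49 in naive WT AM, with a difference of -0.35 (SE 0.37, adjusted p = 0.459). S100a1 differed by -0.43, within the level bounds (adjusted p = 0.00762; 0.0547 with the compared arrays alone). Serpinb1a, a protease inhibitor, had 10.04 and 9.73 in IL-4c WT LPM, against 8.89 and 8.94 in naive WT AM, with a change under treatment of 0.13 (adjusted p = 0.699). The arginine transporter Slc7a2 had 11.34 and 11.41 in IL-4c WT LPM, against 8.33, 8.19 and 8.15 in naive WT LPM and 9.33 and 9.62 in naive WT AM. Treated peritoneal cells exceeded AM 3.72-fold and naive LPM 8.87-fold.

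For 24 of the 368 alveolar-enriched genes, treatment lowered what naive LPM had, which widened the gap to AM. Over all genes, 4.81% were lowered. Tlr2, a receptor for bacterial lipoproteins, had 5.55 and 5.31 in IL-4c WT LPM, against 7.99, 8.0 and 7.96 in naive WT LPM and 10.98 and 11.2 in naive WT AM. Clec7a, the beta-glucan receptor dectin-1, had 5.16 and 4.0 in IL-4c WT LPM, against 7.27, 7.37 and 7.56 in naive WT LPM and 9.9 and 10.13 in naive WT AM. Nlrp3, the inflammasome sensor, had 4.24 and 4.2 in IL-4c WT LPM, against 6.77, 7.15 and 6.8 in naive WT LPM and 9.01 and 9.29 in naive WT AM. These genes encode sensors of microbes and danger. The chemokine Ccl3 had 4.94 and 3.96 in IL-4c WT LPM, against 9.38, 8.61 and 8.91 in naive WT LPM and 11.05 and 11.59 in naive WT AM. Rgs1, a regulator of G protein signalling, had 4.19 and 3.91 in IL-4c WT LPM, against 8.08, 8.67 and 7.63 in naive WT LPM and 10.14 and 10.03 in naive WT AM. In each the order of the groups was IL-4c WT LPM, naive WT LPM and naive WT AM from low to high, with no overlap. Lpl, the lipoprotein lipase, had 7.79 and 6.7 in IL-4c WT LPM, against 9.67, 9.39 and 9.85 in naive WT LPM and 11.5 and 11.77 in naive WT AM. Olr1, a receptor for oxidised lipoprotein, had 5.23 and 4.48 in IL-4c WT LPM, against 6.65, 6.38 and 5.67 in naive WT LPM and 10.64 and 10.71 in naive WT AM. Tgfbr1, the signalling receptor for TGF-beta, which shapes alveolar macrophages, had 6.27 and 6.43 in IL-4c WT LPM, against 7.48, 7.43 and 7.42 in naive WT LPM and 9.82 and 10.04 in naive WT AM. Its change under treatment was -1.09.

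Most peritoneal-enriched genes still stood above AM after treatment. Of the 326 peritoneal-enriched genes, 285 (87.4%) were above AM in IL-4c WT LPM, where 11.8% of all genes were, against 323 of 326 (99.1%) in naive WT LPM, where 8.26% of all genes were. A further 15 were level with AM, 1 was below and 25 were not resolved. Treatment lowered 103 of the 326 and raised 17, where 4.81% of all genes were lowered and 6.05% raised. In 178 of the 326, among them 155 of the 285 above AM, no WT AM array exceeded its median. These passed the filter through other arrays, so the count above AM is a description only. The mean log2 value over the set was 7.78 and 7.77 in IL-4c WT LPM, against 8.34, 8.35 and 8.39 in naive WT LPM and 4.89 and 4.87 in naive WT AM, so the set stood lower after treatment on both arrays and still far above AM. All 25 measured and tested members of a list of 27 peritoneal identity genes were called higher than in AM, with a median difference of 5.54, and in 14 of them no WT AM array exceeded its median, so the filter was passed through other arrays. By the call alone, whatever the size, 12 of the 25 were lower and 2 higher than in naive WT LPM, against 19.2% and 22% of all genes.

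Gata6, the master regulator of large peritoneal macrophages, had 9.24 and 9.17 in IL-4c WT LPM, against 8.92, 8.95 and 8.9 in naive WT LPM and 5.0 and 4.22 in naive WT AM. The treated arrays were the highest of all and the change under treatment was 0.28 (adjusted p = 0.216). Rarb, a retinoic acid receptor, had 7.79 and 7.66 in IL-4c WT LPM, against 7.75, 7.65 and 7.82 in naive WT LPM and 4.35 and 4.27 in naive WT AM. Icam2, an adhesion molecule, had 10.72 and 10.85 in IL-4c WT LPM, against 11.01, 10.87 and 11.04 in naive WT LPM and 5.15 and 4.64 in naive WT AM. These stood far above AM on every peritoneal array. Itgam, the integrin CD11b, had 11.48 and 11.42 in IL-4c WT LPM, against 11.69, 11.57 and 11.61 in naive WT LPM and 4.02 and 3.81 in naive WT AM. It stood 186-fold above AM. Alox15, a lipoxygenase, had 11.79 and 11.86 in IL-4c WT LPM, against 12.33, 12.28 and 12.38 in naive WT LPM and 4.07 and 3.94 in naive WT AM. The acute phase protein gene Saa3 had 11.94 and 11.7 in IL-4c WT LPM, against 11.92, 11.94 and 11.96 in naive WT LPM and 3.98 and 3.58 in naive WT AM. The protease inhibitor gene Serpinb2, the scavenger protein gene Cd5l and Ifitm6 stood above AM by 7.99, 7.47 and 7.72 on the log2 scale. Their changes under treatment were 0.07, 0.67 and 0.24, of which that of Cd5l was called (adjusted p = 0.000658). Others were reduced and stayed above AM. Cxcl13, a B cell attracting chemokine, fell most in the set. It had 6.81 and 5.76 in IL-4c WT LPM, against 11.5, 11.7 and 11.62 in naive WT LPM and 3.33 and 3.13 in naive WT AM. Itga6, an integrin that binds laminin, had 8.8 and 9.12 in IL-4c WT LPM, against 11.18, 11.32 and 11.11 in naive WT LPM and 5.59 and 6.13 in naive WT AM. Tgfb2 had 8.39 and 7.96 in IL-4c WT LPM, against 10.16, 10.4 and 10.46 in naive WT LPM and 5.72 and 5.89 in naive WT AM. The coagulation factor gene F5 (-1.76), the TGF-beta binding protein gene Ltbp1 (-1.83), the lubricin gene Prg4 (-1.13), the complement receptor gene Vsig4 (-1.19) and Thbs1 (-1.36) changed under treatment by these log2 amounts (largest adjusted p = 0.000877, for Thbs1).

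Among peritoneal-enriched genes, 16 were level with AM or below it after treatment, and a further 25 were not resolved. All 16 of the level or below genes were lowered by treatment. Lama3, a laminin chain, had 3.76 and 3.93 in IL-4c WT LPM, against 6.32, 6.8 and 6.85 in naive WT LPM and 4.2 and 3.96 in naive WT AM. The lipid transporter Abca6 had 2.98 and 3.44 in IL-4c WT LPM, against 6.05, 6.36 and 5.54 in naive WT LPM and 3.2 and 3.33 in naive WT AM. Aif1, a calcium-binding protein of macrophages, had 4.1 and 3.9 in IL-4c WT LPM, against 5.56, 6.37 and 6.64 in naive WT LPM and 3.73 and 3.84 in naive WT AM. For these genes the treated and AM arrays lay close together and the naive LPM arrays stood apart. The chemokine Cxcl12 had 4.75 and 4.39 in IL-4c WT LPM, against 5.78, 6.47 and 6.54 in naive WT LPM and 4.26 and 3.96 in naive WT AM. The haemoglobin scavenger receptor Cd163 had 4.35 and 4.67 in IL-4c WT LPM, against 5.54, 5.74 and 5.8 in naive WT LPM and 4.63 and 4.12 in naive WT AM. For these genes and others of the level class, 10 of 15 in all, no array of treated cells or AM exceeded its median, so level there means dim in both. The level class was lost for Aif1, Cd163 and Cxcl12 when 1 array was left out (largest bounds 1.03 to 1.2). This was the second AM or second IL-4c array for Aif1, the first AM array for Cd163, and the first AM or second IL-4c array for Cxcl12. Marcksl1, an actin-regulating protein, was the 1 gene below AM, with 6.25 and 5.48 in IL-4c WT LPM, against 8.53, 8.77 and 8.7 in naive WT LPM and 7.39 and 6.72 in naive WT AM. Its adjusted p was 0.00321 (0.0615 without the first AM array and 0.0664 without the second IL-4c array). F13a1, a clotting factor subunit, had 4.74 and 4.25 in IL-4c WT LPM, against 7.63, 9.04 and 9.18 in naive WT LPM and 3.91 and 4.01 in naive WT AM. Haptoglobin Hp had 5.43 and 5.58 in IL-4c WT LPM, against 9.02, 8.8 and 9.2 in naive WT LPM and 4.51 and 4.69 in naive WT AM. Both were not resolved against AM, and both were called higher than in AM with the compared arrays alone (adjusted p = 0.0483 and 0.0016).

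Treatment raised 17 of the 326 peritoneal-enriched genes, all of them above AM, a share near the 6.05% of all genes raised. Arg1, arginase 1, had 12.25 and 12.3 in IL-4c WT LPM, against 8.36, 8.05 and 7.91 in naive WT LPM and 4.92 and 4.83 in naive WT AM. It was 169-fold above AM. Mgl2, a galactose-type lectin, had 11.29 and 11.13 in IL-4c WT LPM, against 5.47, 4.64 and 5.23 in naive WT LPM and 3.4 and 2.83 in naive WT AM. This was the largest excess over AM of all tested genes (8.09, SE 0.27, adjusted p = 7.95e-13). Its relative Clec10a had 8.97 and 8.61 in IL-4c WT LPM, against 5.71, 5.68 and 5.52 in naive WT LPM and 2.95 and 3.5 in naive WT AM. The integrin chain Itgb7 had 8.91 and 8.95 in IL-4c WT LPM, against 7.77, 7.71 and 8.11 in naive WT LPM and 4.49 and 4.59 in naive WT AM. Lyve1, a hyaluronan receptor, and Anpep, an aminopeptidase, were named after their values were seen and rose by 2.56 and 3.3.

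The listed alternative activation genes split evenly against AM by count. Of 36 listed genes 34 were tested, 15 were called higher and 15 lower than in AM, with a median difference of -0.21. For this and every list below, 29.5% of all genes were called higher and 21.8% lower than in AM. Against naive WT LPM, 20 of the 34 were called higher, where 22% of all genes were. In 6 of the 34 no WT AM array exceeded its median, and in 7 only AM arrays of the WT groups did. The list also shares genes with the alveolar signature, among them Itgax, Atp6v0d2, Pparg, Mrc1 and Flt1. The counts are therefore descriptions only. Beside Arg1, Mgl2 and Clec10a, Rnase2a, an eosinophil-type ribonuclease, was above AM, with 11.28 and 11.17 in IL-4c WT LPM, against 2.71, 2.65 and 3.15 in naive WT LPM and 3.92 and 3.45 in naive WT AM. Ucp1, the mitochondrial uncoupling protein, had 8.93 and 9.74 in IL-4c WT LPM, against 4.62, 3.8 and 4.37 in naive WT LPM and 5.44 and 4.85 in naive WT AM. Chil4, a close relative of Chil3 whose probe set may share signal with it, had 8.94 and 8.85 in IL-4c WT LPM, against 3.38, 3.23 and 3.58 in naive WT LPM and 5.55 and 4.68 in naive WT AM. It was named after its values were seen. Retnla, the secreted protein RELMalpha, had 12.09 and 11.81 in IL-4c WT LPM, against 10.83, 11.48 and 11.45 in naive WT LPM and 4.63 and 5.04 in naive WT AM. It was already high in naive LPM and dim in AM. The 13 genes of this list below AM included Itgax, Atp6v0d2, Pparg, Clec7a, Mrc1 and Flt1, described above. They also included Egr2, a zinc finger transcription factor, with 6.57 and 5.86 in IL-4c WT LPM, against 6.24, 6.28 and 6.63 in naive WT LPM and 11.37 and 11.6 in naive WT AM.

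Of 34 transcription factors tested, 10 were higher and 16 lower than in AM, and 8 were not called. The share higher was near the 29.5% of all genes, and 21.8% of all genes were lower. Egr2 and some other lower members also belong to the immediate early and dissociation list described below. Of these, Jun had 7.4 and 7.52 in IL-4c WT LPM, against 9.5, 9.64 and 9.59 in naive WT LPM and 9.66 and 9.58 in naive WT AM. Treatment lowered Jun and Fos, with log2 differences from naive LPM of -2.12 and -2.54, whereas Egr2 was not called as changed. Where naive LPM differed from AM in these genes, tissue and preparation cannot be told apart. Beside Gata6 and Rarb, the treated cells had more of the Kruppel-like factor Klf2 (8.89 and 8.48 in IL-4c WT LPM, against 6.39 and 6.22 in naive WT AM). They had more Maf, which restrains macrophage self-renewal (6.85 and 6.41 in IL-4c WT LPM, against 4.74 and 4.86 in naive WT AM). Etv5 and Runx3 were also higher, by 2.92 and 1.43 on the log2 scale. Irf4, an IL-4-inducible regulator, had 6.8 and 6.91 in IL-4c WT LPM, against 6.03, 5.98 and 6.08 in naive WT LPM and 4.21 and 4.31 in naive WT AM. Its treated arrays exceeded all naive LPM and AM arrays. Runx1 was lower, with 6.97 and 7.28 in IL-4c WT LPM, against 10.02 and 10.2 in naive WT AM. Cebpa, a myeloid factor, had 7.46 and 7.13 in IL-4c WT LPM, against 9.44 and 9.67 in naive WT AM. Irf8 and Tcf7l2 were also lower, with log2 differences of -2.16 and -3.34. Treatment lowered Cebpa and Irf8, with log2 differences from naive LPM of -1.65 and -1.91. Klf4 had 9.17 and 9.65 in IL-4c WT LPM, against 7.94, 7.4 and 7.29 in naive WT LPM and 8.69 and 8.69 in naive WT AM. It was called higher than in AM after treatment, a call lost without the second IL-4c array (adjusted p = 0.111). The myeloid factor Spi1 (PU.1) was level, with 9.59 and 9.78 in IL-4c WT LPM, against 9.57 and 9.86 in naive WT AM. Stat6, the signal transducer of IL-4, was level too, with 8.1 and 8.27 in IL-4c WT LPM, against 7.94 and 8.17 in naive WT AM. So were Cebpb (log2 difference 0.06) and Rxra, the partner receptor of PPARG (-0.2). Zeb2 was level with 9.04 and 8.92 in IL-4c WT LPM, against 8.89 and 9.07 in naive WT AM. Myc, a driver of growth, had 9.82 and 9.65 in IL-4c WT LPM, against 8.68 and 9.0 in naive WT AM, and was higher by 0.9 (adjusted p = 0.00241). Bhlhe40 was 1.91-fold lower in IL-4c WT LPM than in AM (adjusted p = 0.000667), and its change under treatment in LPM was 0.2 (adjusted p = 0.386).

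Cell cycle genes were higher in treated peritoneal cells than in AM. In the list of DNA replication and S phase genes 32 of 37 were called higher and 0 lower (5 not called), with a median difference of 1.31, and in the list of G2/M and mitosis genes 35 of 37 were higher and 0 lower, with a median of 1.76. The mean over the S phase list was 7.18 to 7.59 on the IL-4c arrays, against 5.55 to 5.72 in naive WT LPM and 6.09 to 6.13 in naive WT AM. Rrm2, a subunit of ribonucleotide reductase, had 9.2 and 9.62 in IL-4c WT LPM, against 5.34, 5.2 and 5.4 in naive WT LPM and 6.35 and 6.44 in naive WT AM. Tyms, thymidylate synthase, had 8.95 and 9.28 in IL-4c WT LPM, against 6.14, 6.58 and 6.45 in naive WT LPM and 6.74 and 6.32 in naive WT AM. Both enzymes supply nucleotides for DNA synthesis. Ube2c, which works with the anaphase-promoting complex, had 9.17 and 9.36 in IL-4c WT LPM, against 6.81, 6.6 and 7.01 in naive WT LPM and 6.49 and 6.52 in naive WT AM. Aurkb, a mitotic kinase, had 8.43 and 8.8 in IL-4c WT LPM, against 5.8, 6.14 and 6.03 in naive WT LPM and 5.9 and 6.21 in naive WT AM. Each treated array exceeded each AM array for these 4 genes.

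More energy metabolism genes were higher than lower in treated cells. Of 27 oxidative phosphorylation genes, 17 were called higher than in AM and 1 lower, but 15 were within the level bounds and the median was 0.54. The respiratory complex subunit gene Uqcrc1 had 9.13 and 9.32 in IL-4c WT LPM, against 7.74 and 7.83 in naive WT AM. The ATP synthase subunit gene Atp5g1 had 10.28 and 10.44 in IL-4c WT LPM, against 8.9 and 9.09 in naive WT AM. The lower one, Ndufa4, had 9.48 and 9.85 in IL-4c WT LPM, against 10.97 and 11.05 in naive WT AM. Of 13 glycolysis genes 8 were higher and 2 lower, with a median of 0.98. Pfkl, the liver-type phosphofructokinase, had 8.84 and 9.13 in IL-4c WT LPM, against 5.28 and 5.83 in naive WT AM. Its platelet-type relative Pfkp moved the other way, with 7.22 and 7.26 in IL-4c WT LPM, against 8.51 and 8.95 in naive WT AM. Both encode isoforms of the same glycolytic enzyme. Pgam1, phosphoglycerate mutase, had 10.65 and 10.77 in IL-4c WT LPM, against 8.06 and 8.39 in naive WT AM. Slc16a3, the lactate transporter MCT4, had 8.88 and 8.99 in IL-4c WT LPM, against 6.15 and 6.76 in naive WT AM. Of 10 polyamine and arginine genes, 5 were higher, led by Arg1 and Slc7a2, and 3 lower.

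Lipid genes were mostly lower than in AM. Of 39 genes of lipid uptake, storage and oxidation, 21 were called lower and 8 higher, with a median of -0.52. In 4 of the 39 only AM arrays of the WT groups exceeded their median. The lower ones included Fabp1, Pparg, Cidec, Lpl and Olr1, described above. The cholesterol exporter Abca1 had 5.79 and 4.89 in IL-4c WT LPM, against 8.08, 7.9 and 7.6 in naive WT LPM and 8.14 and 8.46 in naive WT AM. The fatty acid transporter Cd36 had 9.62 and 9.05 in IL-4c WT LPM, against 10.77, 10.87 and 10.84 in naive WT LPM and 10.52 and 10.57 in naive WT AM. In both, treated cells were below naive LPM and AM alike, and both were named after their values were seen. Higher than in AM were the scavenger receptor Msr1 (9.68 and 9.78 in IL-4c WT LPM, against 5.39 and 5.9 in naive WT AM) and Fabp3 (log2 difference 1.51). Apoe, a lipoprotein component, had 10.11 and 10.37 in IL-4c WT LPM, against 12.72, 12.77 and 12.81 in naive WT LPM and 8.23 and 7.63 in naive WT AM, with treated cells between naive LPM and AM. Of 18 cholesterol synthesis genes, 6 were lower and 2 higher than in AM, with Cyp51 at 5.43 and 6.05 in IL-4c WT LPM, against 7.18 and 8.02 in naive WT AM. Hmgcs1 was lower, with a log2 difference of -1.33, and Mvd was higher by 0.75. The higher count was 1 under several alternatives, among them a second quantile normalization, the replicate block and the compared arrays alone, and 0 without the first AM array, where the Mvd call was lost (adjusted p = 0.125). Of 29 lysosomal genes, 14 were lower and 6 higher. The protease gene Ctsc had 9.54 and 9.58 in IL-4c WT LPM, against 11.35 and 11.43 in naive WT AM. The glucosidase gene Gaa had 8.82 and 8.86 in IL-4c WT LPM, against 7.12 and 7.03 in naive WT AM, and the protease gene Ctse was higher by 1.66.

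**Figure D4:**
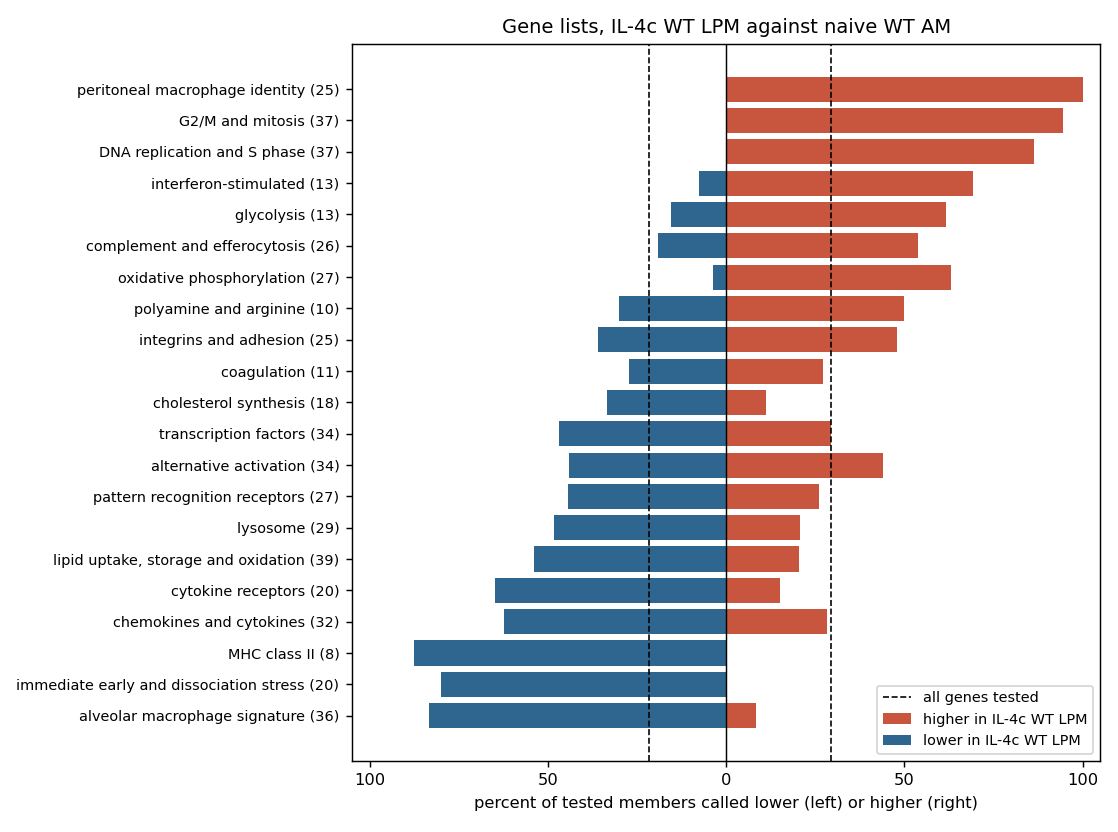
For each of 21 gene lists (number of tested members in brackets), bars show the percent of members called higher (right) and lower (left) in IL-4c WT LPM than in naive WT AM, ordered by median difference. Dashed lines mark the shares over all genes, 29.5% higher and 21.8% lower.

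Immune genes set the cells apart in both directions. Of 8 tested MHC class II genes, 7 were lower in IL-4c WT LPM and 0 higher, with a median of -1.42. In 2 of the 8 only AM arrays of the WT groups exceeded their median. Cd74, the invariant chain, had 8.98 and 8.6 in IL-4c WT LPM, against 8.93, 9.07 and 9.38 in naive WT LPM and 11.23 and 11.09 in naive WT AM. H2-Ab1, a class II chain, had 8.83 and 9.0 in IL-4c WT LPM, against 8.92, 9.21 and 9.25 in naive WT LPM and 10.84 and 10.83 in naive WT AM. Treated and naive LPM overlapped in both, and all were below AM. Of 32 chemokine and cytokine genes 20 were lower and 9 higher, with a median of -1. In 4 of the 32 no WT AM array exceeded its median, and in 5 only AM arrays of the WT groups did. The inflammatory cytokine Tnf had 4.5 and 4.68 in IL-4c WT LPM, against 5.75, 5.09 and 5.14 in naive WT LPM and 10.17 and 10.73 in naive WT AM. Il1b, another, had 3.52 and 3.4 in IL-4c WT LPM, against 3.86, 3.42 and 3.75 in naive WT LPM and 9.09 and 8.79 in naive WT AM. The neutrophil chemokine Cxcl2 had 6.39 and 5.59 in IL-4c WT LPM, against 10.55, 10.65 and 10.33 in naive WT LPM and 11.5 and 11.09 in naive WT AM. Tnf and Il1b were low in both peritoneal groups, whereas Cxcl2 was high in naive LPM and fell under treatment. Higher than in AM were Pf4 (11.2 and 10.89 in IL-4c WT LPM, against 5.26 and 5.07 in naive WT AM) and Ccl24 (9.55 and 9.28 in IL-4c WT LPM, against 4.39 and 4.36 in naive WT AM). Of 20 immediate early and dissociation genes 16 were lower and 0 higher, with a median of -2.24. Against naive WT LPM, 14 of the 20 were called lower, with a median of -1.5, where 19.2% of all genes were called lower. Fosb, a subunit of AP-1, had 5.01 and 5.19 in IL-4c WT LPM, against 6.34, 7.61 and 6.33 in naive WT LPM and 10.65 and 11.07 in naive WT AM. Rgs2, a regulator of G protein signalling, had 5.37 and 5.59 in IL-4c WT LPM, against 9.86, 9.91 and 9.63 in naive WT LPM and 10.2 and 9.86 in naive WT AM. The AM came from a lung digest and both LPM groups from a lavage. Where naive LPM differed from AM in these genes or in Tnf, Il1b, Ccl3 and Cxcl2, tissue and preparation cannot be told apart. The part of preparation was not tested.

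Of 26 tested complement and efferocytosis genes, 14 were higher and 5 lower. In 12 of the 26 no WT AM array exceeded its median, so they passed the filter through other arrays and the count is a description only. C1qc, a chain of the first complement component, had 11.68 and 11.67 in IL-4c WT LPM, against 4.65 and 4.69 in naive WT AM. Mertk, a receptor for apoptotic cells, had 7.63 and 7.92 in IL-4c WT LPM, against 10.13 and 10.31 in naive WT AM. C5ar1, the receptor for C5a, was also lower (log2 difference -1.73). Of 20 tested cytokine receptor genes, 13 were lower and 3 higher, and the higher count was 1 without the first AM array or without the second IL-4c array. Csf1r, the M-CSF receptor, was higher (9.98 and 10.09 in IL-4c WT LPM, against 8.4 and 8.55 in naive WT AM). Il13ra1, which pairs with the IL-4 receptor alpha chain, was lower (5.38 and 5.69 in IL-4c WT LPM, against 8.08 and 8.2 in naive WT AM). So was the chemokine receptor Cxcr4 (log2 difference -3.35). Of 25 integrin and adhesion genes 12 were higher and 9 lower. In 4 of the 25 no WT AM array exceeded its median, and in 3 only AM arrays of the WT groups did. Beside Itgax, the integrin chain Itgal was lower (3.75 and 4.33 in IL-4c WT LPM, against 8.69 and 9.01 in naive WT AM), as was Itgb5 (log2 difference -4.02). Of 27 pattern recognition receptor genes 12 were lower and 7 higher, the latter near the 29.5% of all genes. In 6 of the 27 no WT AM array exceeded its median. Of 13 tested interferon-stimulated genes 9 were higher and 1 lower, and 6 of these 13 likewise passed the filter without the WT AM arrays. Oas2, an antiviral synthetase, had 7.21 and 6.96 in IL-4c WT LPM, against 4.35 and 4.26 in naive WT AM, and Irf7 was higher by 2.69. Ifit3 was the lower one (4.27 and 4.48 in IL-4c WT LPM, against 5.82 and 5.24 in naive WT AM), a call lost without the first AM or the first IL-4c array (adjusted p = 0.107 and 0.056). Of 11 tested coagulation genes 3 were higher (Serpinb2, F5 and F10) and 3 lower, near the 29.5% and 21.8% of all genes. In 3 of the 11 no WT AM array exceeded its median. Anxa5, an annexin that binds phosphatidylserine, had 7.69 and 6.86 in IL-4c WT LPM, against 11.05 and 11.28 in naive WT AM.

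Of 7 tested general macrophage markers, 2 were called higher (Csf1r and Adgre1) and 4 lower than in AM. Against naive WT LPM 5 of the 7 were called lower, where 19.2% of all genes were. Fcgr1 had 4.58 and 4.09 in IL-4c WT LPM, against 6.82, 6.63 and 7.4 in naive WT LPM and 7.39 and 7.4 in naive WT AM. Cd68 had 11.68 and 11.61 in IL-4c WT LPM, against 11.67 and 11.78 in naive WT AM. Most markers of other cell types did not pass the filter on low values. Among 10 epithelial markers the mean was 4.04 to 4.08 in IL-4c WT LPM and 4.59 to 5.12 in naive WT AM, and 4 of the 6 tested were called lower. The club cell gene Scgb1a1 had 2.25 and 2.3 in IL-4c WT LPM, against 4.86 and 6.36 in naive WT AM, and the surfactant gene Sftpc had 3.74 and 3.31 in IL-4c WT LPM, against 3.82 and 6.57 in naive WT AM, high on the second AM array alone. Cd209a, a dendritic cell lectin, had 7.83 and 6.46 in IL-4c WT LPM, against 6.22, 6.4 and 6.38 in naive WT LPM and 4.31 and 4.45 in naive WT AM. It was the 1 higher gene of 4 tested small peritoneal macrophage, monocyte and dendritic cell markers. Clec9a, a lectin of cross-presenting dendritic cells, was lower with 3.15 and 2.78 in IL-4c WT LPM, against 5.3 and 5.99 in naive WT AM, and so was the homing receptor Ccr7 with 4.47 and 4.83 in IL-4c WT LPM, against 5.86 and 5.07 in naive WT AM. The endothelial and leukocyte adhesion gene Pecam1 had 7.09 and 7.33 in IL-4c WT LPM, against 4.12, 4.02 and 4.17 in naive WT LPM and 4.29 and 4.18 in naive WT AM. Vwf, the other tested gene of 6 endothelial markers, was called lower than in AM, with 5.82 and 5.38 in IL-4c WT LPM, against 6.39 and 6.69 in naive WT AM, and Cdh5, Kdr, Tek and Cldn5 did not pass the filter on low values. None of the tested mast cell (1), T and NK cell (3) or mesothelial and stromal (3) markers was called either way. Of 9 neutrophil markers 3 were tested and 2 called lower. S100a8 had 6.98 and 5.9 in IL-4c WT LPM, against 7.67, 7.51 and 7.71 in naive WT LPM and 7.88 and 7.77 in naive WT AM, and the G-CSF receptor gene Csf3r had 5.88 and 5.32 in IL-4c WT LPM, against 9.2, 9.44 and 9.38 in naive WT LPM and 6.31 and 6.48 in naive WT AM. Both were lower in treated LPM than in naive LPM and in AM. The 2 tested eosinophil markers were called lower, Siglecf with 5.27 and 4.77 in IL-4c WT LPM, against 8.9 and 8.99 in naive WT AM and Ear6 with 4.1 and 3.87 in IL-4c WT LPM, against 6.37 and 6.68 in naive WT AM. Siglecf also marks alveolar macrophages. Cpa3 (mast cell), Cd3g (T cell), Msln (mesothelium) and Epx (eosinophil) stayed at or under 4.30 on all these arrays. Other members of the lists read higher, among them Tpsb2 (mast cell, 4.52 to 4.89), Cd3e (T cell, 4.55 to 5.24) and Col1a1 (stroma, 5.38 to 5.79). The neutrophil genes Ly6g, Mpo, Elane, Camp, Ltf and Retnlg did not pass the filter. Over 8 measured B cell markers the mean was 3.98 to 4.04 in IL-4c WT LPM, 4.64 to 4.76 in naive WT LPM and 4.51 to 4.60 in naive WT AM, and Cd22 alone of them was high in AM (4.32 and 4.16 in IL-4c WT LPM, against 7.5 and 7.3 in naive WT AM). In bulk arrays fewer cells of a type and less RNA per cell cannot be told apart, and the part of these cells in the results was not tested.

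The same comparison in Bhlhe40KO mice, which uses no array of the WT one, called 2870 genes (24.7%) higher and 2633 (22.6%) lower in IL-4c KO LPM than in naive KO AM. Of the 3433 genes higher in WT 2430 were higher in KO and 4 lower, and of the 2540 lower in WT 2080 were lower in KO and 5 higher. The difference between the genotypes was itself tested. The IL-4c LPM minus AM difference was higher in KO than in WT for 50 genes and lower for 24, with 74 called in all (0.636%). The count was 31 to 125 when single arrays were left out (31 without the second IL-4c WT LPM or second KO AM array, 32 without the first KO AM array, 46 without the second WT AM array, 47 without the first IL-4c KO LPM array and 125 without the second). Of the 16 alveolar-enriched genes level with or above AM in WT, 9 were so in KO. This last count is not independent, since the set was chosen for high values in KO AM.

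Class II genes accounted for 4 of the named genes that differed by genotype. H2-Eb1 had 7.14 and 7.03 in IL-4c KO LPM, against 7.2 and 7.12 in naive KO AM. In WT it had 6.88 and 6.82 in IL-4c WT LPM, against 8.58 and 8.88 in naive WT AM. The gap to AM was -0.08 in KO and -1.88 in WT, and the genotypes differed by 1.8 (SE 0.24, adjusted p = 0.0022). Cd74, H2-Ab1 and H2-Aa moved the same way. Ucp1 had 5.37 and 7.0 in IL-4c KO LPM, against 5.22 and 5.38 in naive KO AM, so the excess over AM was 0.89 in KO, against 4.19 in WT. Id2, an inhibitor of basic helix-loop-helix factors, was below AM in KO (6.82 and 7.54 in IL-4c KO LPM, against 8.79 and 8.86 in naive KO AM) and not called as different in WT (9.27 and 9.01 in IL-4c WT LPM, against 8.37 and 8.94 in naive WT AM). The plot of both genotypes shows KO values to the right of WT for 8 of the 12 named genes and to the left for 4.

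**Figure D5:**
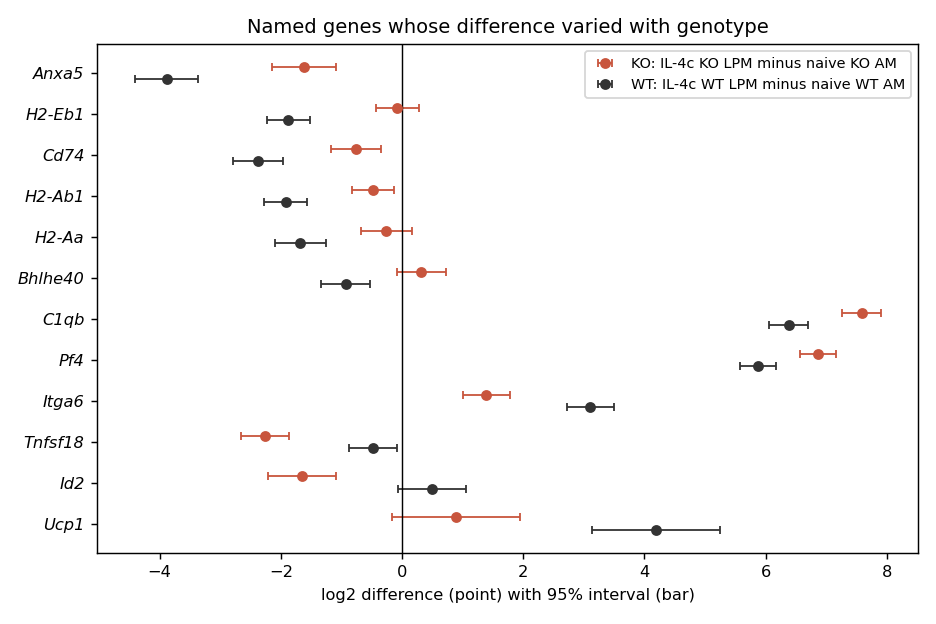
Points show the log2 difference between IL-4c LPM and naive AM, with 95% intervals as bars, in KO (upper point of each pair) and in WT (lower point), from 2 arrays a group, for the 12 named genes whose difference varied with genotype. H2-Eb1 lies at -0.08 in KO and -1.88 in WT, and Ucp1 at 0.89 in KO and 4.19 in WT.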

How the data were processed

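Per the submitters' processing notes, the authors made the deposited log2 values with RMA (version not given in the sources used here; the scale was read from the values). Probe sets were named from the platform annotation: 21789 had 1 symbol, 1621 several and 6767 none, and 21698 matched RefSeq genes. The brightest probe set on average stood for each gene. Genes had to exceed the array median on at least 2 of 16 arrays, which kept 11634 and left out 8304. Means of all 7 groups were fitted with limma 3.58.1 in R 4.3.3 (lmFit and eBayes, 9 residual and 6.61 prior degrees of freedom), adjusted by Benjamini-Hochberg over the tested genes. The number of arrays limits the precision: the median SD within groups was 0.171. The methods were tested on simulated data. Gene sets and lists were chosen with earlier results of these data known. Named genes were members of the signature, peritoneal and transcription factor lists, Bhlhe40, the 12 largest called differences each way (non-overlapping groups, no predicted symbols), up to 4 called members a direction of other lists, and up to 10 genes a class of each set. Figures used matplotlib. Alternatives were other scaling, filters, probe set means, variance models, set definitions, a replicate block and single arrays left out. The IL-4c-stimulated LysM-Cre+ Bhlhe40fl/fl arrays entered only the shared variance.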

Additional observations from a re-analysis of the deposited data

Results flagged for a closer look

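For 12 named genes the difference between IL-4c LPM and naive AM varied with genotype, by limma's test of the difference between genotypes with Benjamini-Hochberg adjustment. The value given first is the KO difference minus the WT difference on the log2 scale, with its adjusted p. It was 2.27 (0.00501) for Anxa5, 1.8 (0.0022) for H2-Eb1, 1.61 (0.00985) for Cd74, 1.44 (0.00645) for H2-Ab1 and 1.42 (0.0307) for H2-Aa, all of them with a smaller gap below AM in KO than in WT. It was 1.2 (0.0152) for C1qb and 0.98 (0.0331) for Pf4, both higher than AM in each genotype and more so in KO. It was -1.71 (0.00415) for Itga6 and -3.3 (0.0418) for Ucp1, less above AM in KO than in WT. It was -1.78 (0.0035) for Tnfsf18, further below AM in KO, and -2.14 (0.0132) for Id2, below AM in KO and not called in WT. Tnfsf18 was named from the alveolar-enriched set, which was chosen for high values in KO AM, so its call is not independent. It was 1.25 (0.046) for Bhlhe40, the gene deleted in KO. Groups of 2 or 3 arrays are too small to test for outlying arrays.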

How the results depend on the processing

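Each group compared has 2 arrays (naive LPM 3), and values near the floor or the top of the array understate differences. Single genes were not re-tested with other set definitions or with single KO arrays left out. Under the remaining alternatives no named gene with a call changed direction. For level genes without a call only the size of the interval bound was checked, so their direction was not tested. Of the 182 named genes, 164 kept their call or class under all of these alternatives. A further 16 lost it and 2 gained a call under at least 1 of them. The counts of genes called higher (2673 to 3710) and lower (2043 to 2812) in IL-4c WT LPM stayed within 1.5 times of the reported ones. With array medians centred or a second quantile normalization, the alveolar-enriched genes below AM numbered 360 and 331. A set bound of 1 on the log2 scale enlarges the sets by construction: 670 alveolar-enriched genes were then below, 145 level and 14 above AM, 122 were raised and 59 were raised to AM level or above, and 549 peritoneal-enriched genes were above and 130 level with or below AM. With sets defined on the naive WT arrays, which hold the same AM arrays as the comparison, 7 were level, 8 were raised to AM level or above and 1 was above AM. The count above AM was 1 with a second quantile normalization, and 1 to 3 with single arrays left out (1 without the first AM, the second IL-4c or the first naive KO LPM array). With single arrays left out, 11 to 17 alveolar-enriched genes were level with AM and 11 to 18 peritoneal-enriched genes level with or below it. The genotype difference was called for 49 genes with the compared arrays alone, and for 31 to 125 with single arrays left out. Leaving out the KO arrays was chosen after seeing the data. Replicate numbers were shared by the groups, but only 2 pairs exist and their deviations correlated at 0.119 across genes, so the numbers were not taken as pairs; with the replicate block 3409 genes were higher and 2513 lower, 341 alveolar-enriched genes were below and 14 level with AM, and 73 genes differed by genotype.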
